A study of Mus musculus with 12 samples.

Results

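B cell and plasma cell genes were examined in the inferior vena cava (IVC) of mice with an aortocaval fistula (AVF), a needle-made connection that exposes the vein to arterial blood flow. The 9 genes were chosen by symbol, with earlier results of these data known, and each matched 1 of the 55414 genes in the table of expected counts. Veins came from 6 AVF mice and from 6 sham-operated mice, which had the same operation without the puncture. All were wild-type C57BL/6J mice, 10 weeks old, with 3 males and 3 females in each group, and the veins were taken on postoperative day 7, with 1 library per mouse. The question asked of these genes was whether transcripts of B cells or of antibody-secreting cells differed between AVF and sham veins, and how they varied from mouse to mouse.

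B cells carry an antibody on their surface together with the signalling chains encoded by Cd79a and Cd79b, and when they are activated they can become plasma cells, which secrete the antibody. An antibody pairs a heavy chain, whose constant region sets its class (IgM, IgD, IgG, IgA or IgE), with a kappa or lambda light chain. The J chain, encoded by Jchain, links IgM and IgA into the multimers that are secreted.

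The libraries held 15177881 to 22717423 counts, and levels are in normalized CPM, that is, counts divided by the library size after TMM normalization. 3 counts, the least taken as detected, were 0.127 to 0.324 normalized CPM, a limit that covers counting error only. In AVF female 1, 46.0% of counts fell on ribosomal RNA genes, and 2.39% to 12.6% in the other libraries, so that values of AVF female 1 rest on fewer counts. AVF male 2 and AVF female 2, which the study set apart as outliers (OUT), had summed hepatocyte markers of 2370 and 6550 normalized CPM, against 0.478 to 3.76 in the other libraries. Summed T cell markers were 9.93 to 15.4 in AVF and 8.31 to 15.5 in sham, and none of the listed T cell or lymph node stroma markers was at 0 in every library. Summed smooth muscle and endothelial markers of the vein wall were 3360 to 5680 in AVF and 3580 to 5700 in sham. In RNA from a whole vein, fewer cells of a type and less RNA per cell cannot be told apart.

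Transcripts of the IgM heavy chain and the kappa light chain were the most abundant of the 9 genes, whereas those of the IgG heavy chains and of Mzb1 were close to the limit of detection. Per kilobase of exon, the mean over the 12 libraries was 71.3 normalized CPM for Igkc, the kappa constant gene, and 57.5 for Ighm, the IgM constant gene. Jchain followed at 7.21 per kilobase. The B cell surface genes were lower, at 1.21 for Cd79b, 0.878 for Cd79a and 0.385 for Ms4a1, and the last places were taken by Ighg2c at 0.241, Mzb1 at 0.191 and Ighg2b at 0.0209. The ranges of each pair of neighbours in this order overlapped over the libraries, although Ighm was above Jchain in each of the 12.

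The antibody genes lie in their own clusters, with Igkc at chr6:70703419-70703950 among the kappa segments and Ighm at chr12:113382178-113386350 beside Ighg2b, Ighg2c and Igha on the same chromosome (GRCm39). Jchain lies apart from them at chr5:88667668-88675750. The surface genes are at chr7:24596740-24601622 for Cd79a, chr11:106202167-106205588 for Cd79b and chr19:11227039-11243605 for Ms4a1.

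Of the 15912 genes tested between AVF and sham, 4.77% were called in either direction (3.37% higher and 1.40% lower in AVF), with an adjusted p under the threshold of 0.05 and a change of at least 2-fold. Of the 9 B and plasma cell genes, 6 had more than 1 CPM in at least 2 libraries and were tested, and 0 of the 6 were called by edgeR's quasi-likelihood test. At an unadjusted p under 0.05 there was 1, Ms4a1, beside 5023 of all 15912 tested genes. By edgeR's exact test and by DESeq2, 1 was called each, again Ms4a1. The 6 log2 fold changes had a median of 0.58, beside -0.01 over all tested genes.

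Among the surface genes, Ms4a1 (ENSMUSG00000024673) differed most between AVF and sham veins. It encodes CD20, a membrane protein of mature B cells that plasma cells no longer make. Its lowest, median and highest values were 1.97, 2.91 and 4.75 normalized CPM in AVF and 0.615, 1.75 and 2.29 in sham. The groups overlapped, since AVF female 2 lay below the highest sham library, and 5 of the 6 AVF libraries lay above it. Of these, AVF males 2 and 3 at 2.39 and 2.31 were close to that sham library at 2.29. The mean was 3.19 ± 1.14 (SD, n = 6) in AVF and 1.58 ± 0.666 (SD, n = 6) in sham, a log2 fold change of 1.01 ± 0.34 (SE) with an adjusted p of 0.0646 by edgeR's quasi-likelihood test. The adjusted p was 0.042 by edgeR's exact test and 0.0203 by DESeq2, and 0.0577 without the OUT libraries. It reached 0.12 without sham female 2, and Ms4a1 was called in 2 of 23 alternative settings.

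Cd79a and Cd79b encode the pair of chains that carry the signal of the B cell receptor. Cd79a measured 0.877, 1.26 and 2.68 normalized CPM (lowest, median, highest) in AVF and 0.366, 1.20 and 2.03 in sham. Cd79b measured 0.932, 1.92 and 3.99 in AVF and 0.852, 1.31 and 2.20 in sham. AVF female 3 was highest and a sham library lowest for both genes, and the groups overlapped over most of their range. The log2 fold changes were 0.36 ± 0.42 for Cd79a (adjusted p = 0.596) and 0.53 ± 0.36 for Cd79b (adjusted p = 0.339, quasi-likelihood test of edgeR).

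**Figure D1:**
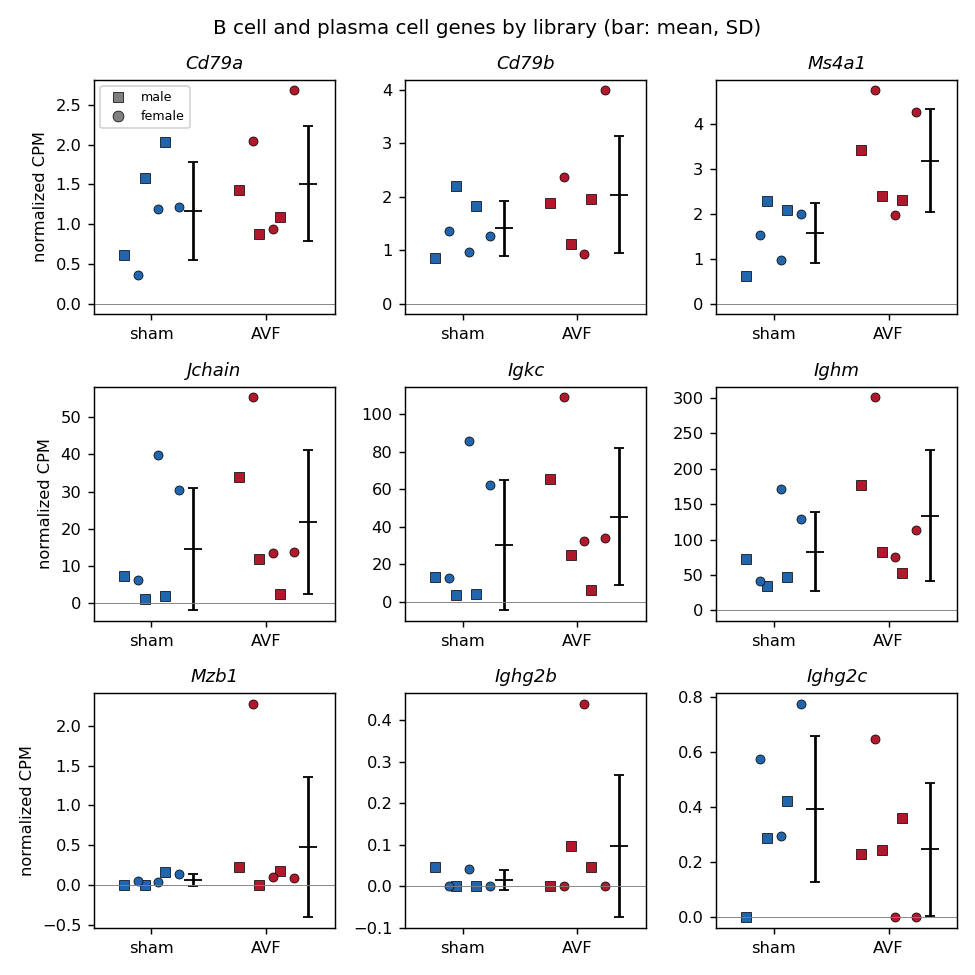
Normalized CPM (linear axes) of the 9 B and plasma cell genes in each sham (blue) and AVF (red) library, squares for males and circles for females, with the mean and SD of each group of 6 as a bar. Ms4a1 lies higher in 5 of 6 AVF libraries than in any sham library, by little in AVF males 2 and 3. Jchain, Igkc and Ighm span a wide range within both groups.

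The antibody genes varied widely between mice within both groups. Jchain measured 2.45, 13.5 and 55.4 normalized CPM (lowest, median, highest) in AVF and 1.05, 6.82 and 39.8 in sham, a 52.7-fold range over the 12 libraries. Igkc measured 6.66, 33.3 and 109 in AVF and 3.82, 13.1 and 85.5 in sham, a 28.5-fold range. Ighm measured 53.3, 97.8 and 301 in AVF and 34.9, 60.2 and 172 in sham, an 8.63-fold range.

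The same libraries were high for all 3 antibody genes. AVF female 1 was highest, followed by AVF male 1 and by sham females 2 and 3, in an order that differed between genes only among these last 3. AVF male 3 was lowest of the AVF group, and sham males 2 and 3 were at the bottom for Jchain and Igkc. The log2 fold changes between AVF and sham were 0.58 ± 0.84 for Jchain (adjusted p = 0.683), 0.58 ± 0.80 for Igkc (adjusted p = 0.663) and 0.69 ± 0.48 for Ighm (adjusted p = 0.356, quasi-likelihood test of edgeR). Without AVF female 1, the library rich in ribosomal RNA, they were 0.06, 0.12 and 0.29.

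Mzb1, Ighg2b and Ighg2c did not pass the filter on low values. Under 2 alternatives that kept them (no filter, or over 12 counts in total), none was called, with log2 fold changes of 2.51 to 2.54 for Mzb1 (adjusted p of 0.18 to 0.209), 2.29 to 2.30 for Ighg2b (0.245 to 0.29) and -0.77 to -0.74 for Ighg2c (0.632 to 0.646). Mzb1, which encodes a protein of the endoplasmic reticulum that helps to assemble IgM, had 21 counts in AVF female 1 and 0 to 4 in every other library. Ighg2b had 8 counts in AVF female 2 and 0 to 2 elsewhere. Ighg2c had 0 to 8 counts in AVF and 0 to 16 in sham. Both encode constant regions of IgG subclasses and resemble each other closely in sequence, so that reads may be split between them and these counts are uncertain.

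To determine whether the 6 tested genes varied together, their log2 normalized CPM was correlated over the 12 libraries for 15 pairs of genes. Jchain and Igkc had a Pearson's r of 0.99 (permutation p = 1e-05, the smallest that 100000 resamples can give, adjusted p = 0.0001) and a Spearman's rho of 1.00 to 2 decimals (permutation p = 1e-05). Jchain and Ighm had r = 0.93 (permutation p = 2e-05, adjusted p = 0.0001) and rho = 0.97 (permutation p = 1e-05), and Igkc and Ighm also had r = 0.93 (permutation p = 2e-05) and rho = 0.97 (permutation p = 2e-05). Within AVF these 3 values of r were 1.00, 0.93 and 0.92, and within sham they were 0.99, 0.93 and 0.94 (n = 6 each, exact permutation p of 0.00139 to 0.0125). Leaving out the 2 libraries farthest from the median gave 0.99, 0.91 and 0.92.

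Relations among the surface genes were looser. Cd79b and Ms4a1 had r = 0.79 (permutation p = 0.0022, adjusted p = 0.0082) and rho = 0.80 (permutation p = 0.0028, adjusted p = 0.01), with r = 0.82 within AVF (exact permutation p = 0.0458) and 0.89 within sham (exact permutation p = 0.0194). Cd79a and Cd79b had r = 0.72 (permutation p = 0.0082, adjusted p = 0.025) and rho = 0.76 (permutation p = 0.0062, adjusted p = 0.019), with 0.93 within AVF (exact permutation p = 0.00833) and 0.52 within sham (exact permutation p = 0.282). Cd79a and Ms4a1 had r = 0.66 (permutation p = 0.02, adjusted p = 0.05) and rho = 0.66 (permutation p = 0.022, adjusted p = 0.055), with 0.93 within AVF (exact permutation p = 0.0181) and 0.51 within sham (exact permutation p = 0.297). Thus the relations of Cd79a were not shown within sham. Leaving out the 2 farthest libraries gave 0.69, 0.81 and 0.68.

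Between antibody and surface genes, none of the 9 pairs passed the test over the 12 libraries, with r of -0.14 to 0.38 and adjusted permutation p of 0.49 to 0.79. Within the groups these values often had opposite signs, which the pooled r does not show. Ms4a1 had r = 0.84 with Ighm within AVF (exact permutation p = 0.0389, not adjusted), 0.66 with Igkc (exact permutation p = 0.149) and 0.65 with Jchain (exact permutation p = 0.169), and within sham -0.41, -0.37 and -0.43 (exact permutation p of 0.375 to 0.451). Cd79b and Jchain had 0.13 within AVF and -0.77 within sham (exact permutation p of 0.838 and 0.0694). Leaving out the 2 libraries farthest from the median gave 0.75 for Ms4a1 with Ighm, and no test of the difference between groups was made. Sham male 2, for example, had 1.58 normalized CPM of Cd79a, above the AVF median, but 1.05 of Jchain, the lowest of all libraries. Jchain over Cd79a was thus 0.667 in sham male 2 and 33.5 in sham female 2, whereas Igkc over Jchain stayed between 1.83 and 3.64 in all 12 libraries.

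**Figure D2:**
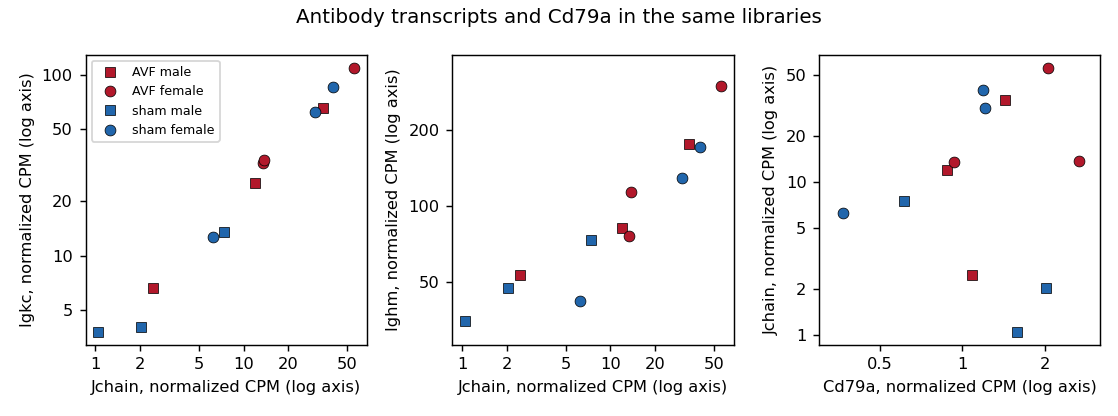
Normalized CPM on log axes of Igkc against Jchain, Ighm against Jchain, and Jchain against Cd79a, with 1 point per library (red AVF, blue sham, squares male, circles female). Igkc follows Jchain closely in both groups (r = 0.99), whereas Jchain shows no such relation to Cd79a (r = 0.09).

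The genes whose levels were most like those of Cd79a and Jchain were sought among 15867 tested genes, leaving out the other B and plasma cell genes and immunoglobulin segments. For Cd79a the 8 most alike were Lpar1 (r = 0.92), Limk1 (r = 0.90), Clcn5, Gm5127, Shoc2, Dpysl3, Elmo2 and Tceal5, with the last 5 at 0.87 to 0.88. For Jchain they were Pgs1 (r = 0.89), Ankrd16, Chd7, Metap1, Cdc25a, Txndc11, Usp15 and Iars1 (r = 0.84). These values are over 12 libraries that share their normalization and are given as a description. None of the 16 genes was called between AVF and sham.

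Within each library, the class of the antibody transcripts could be compared apart from their amount. IgM made up 95% ± 2.72 (SD, n = 6) of the heavy chain constant counts in AVF and 95.4% ± 4.38 (SD, n = 6) in sham (two-sided exact permutation p = 0.903, adjusted over 3 shares 0.985). IgG made up 1.06% ± 1.78 and 0.683% ± 0.501 (exact permutation p = 0.903, adjusted p = 0.985). The kappa chain made up 89.6% ± 6.98 and 89.7% ± 9.24 of the light chain constant counts (exact permutation p = 0.985, adjusted p = 0.985). The libraries poorest in Jchain, namely AVF male 3 and sham males 2 and 3, were also those with the lowest kappa shares, at 76.2%, 78.4% and 77.4%. They had the lowest IgM shares as well, at 89.5% to 90%, and sham males 2 and 3 had the highest shares of IgD, the class that naive B cells carry beside IgM, at 9.31% and 8.72%.

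The IgA heavy chain gene Igha rose in AVF. Igha (ENSMUSG00000095079) encodes the constant region of IgA, the antibody class of mucosal surfaces. Counts were 52, 36 and 7 in AVF males 1 to 3 and 14, 35 and 29 in AVF females 1 to 3. In sham they were 0, 1 and 6 in males 1 to 3 and 0, 2 and 0 in females 1 to 3. The groups did not overlap in normalized CPM, at 0.317 to 2.98 in AVF and 0 to 0.254 in sham, although AVF male 3 and sham male 3 lay close to each other.

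Igha had a mean of 1.64 ± 0.863 (SD, n = 6) in AVF and 0.0644 ± 0.0991 (SD, n = 6) in sham. The log2 fold change was 4.47 ± 0.77 (SE) with an adjusted p of 0.0033 by edgeR's quasi-likelihood test. By the same test without the OUT libraries it was 4.38 (adjusted p = 0.011). Over 23 alternative settings the adjusted p ranged from 1.36e-07 to 0.0219. No sham library had over 1 CPM of Igha, so the gene passed the filter on low values through the AVF group alone. It could hardly have been called lower, and its direction is given as a description. 4.55% of the tested genes did not overlap between groups and were higher in AVF. The share of IgA among heavy chain constant counts, computed after these values were seen, was 0.492% to 2.40% in AVF and 0% to 0.485% in sham. In sham female 3, 0 of 2717 heavy chain counts were Igha, which allows a share of up to 0.110%, the level of 3 counts, and sham female 3 was among the libraries rich in Jchain.

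Of the 9 other immunoglobulin constant genes, 5 were tested and 2 were called, both higher, with a median log2 fold change of 1.71. Among all tested genes 3.37% were called higher. No sham library had over 1 CPM of Igha or Iglc1, so both passed the filter through the AVF group alone and could hardly have been called lower, and the count supports nothing about the list. Beside Igha, the lambda constant gene Iglc1 rose from 0.279 ± 0.285 to 1.08 ± 0.418 normalized CPM (SD, n = 6 each), a log2 fold change of 1.93 ± 0.57 with an adjusted p of 0.0423. AVF male 2 at 0.438 lay below sham female 3 at 0.824, and the call was lost in 12 of 23 alternative settings, with adjusted p of up to 0.0859. These were 2 other filters, the model without the OUT libraries (adjusted p = 0.0608), and the models that left out any 1 library other than AVF male 2, AVF female 1 or sham female 3. Lambda constant genes share sequence, so that reads may be split between them. Iglc3, another of them, stood at 1.71 ± 0.66 on the log2 scale (adjusted p = 0.098), and Ighd, the IgD gene, at 0.37 ± 0.46 (adjusted p = 0.625).

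**Figure D3:**
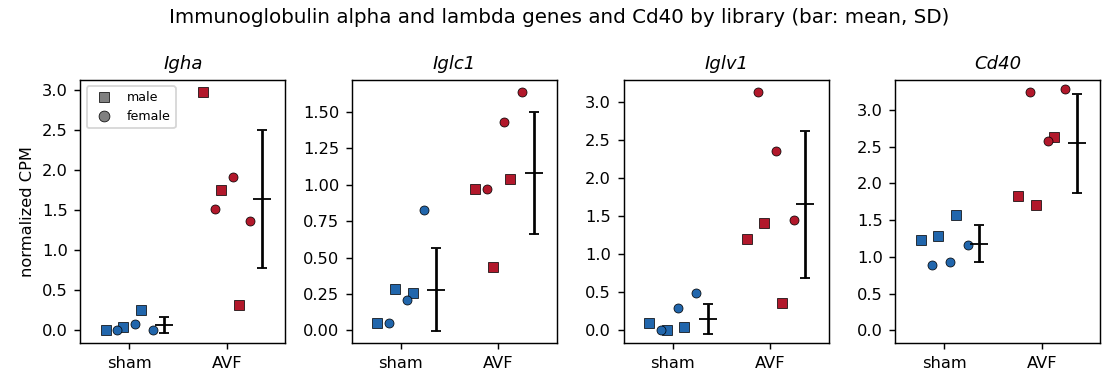
Normalized CPM (linear axes) of Igha, Iglc1, Iglv1 and Cd40 in each sham (blue) and AVF (red) library, squares for males and circles for females, with the mean and SD of each group of 6 as a bar. The AVF and sham libraries do not overlap for Igha and Cd40 and overlap at 1 AVF library for Iglc1 and Iglv1.

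The variable segments of the antibody genes show which antibodies the transcripts came from. Each B cell joins 1 of many variable segments to its heavy and light chain genes, so that the segments counted differ between populations of B cells. The table listed 346 variable segments, of which 132 had at least 1 count, 5145 counts in all. 56 of the 132 had counts in 1 library only. Since rearranged and mutated segments resemble each other, reads may have been assigned to a related segment, and each count is uncertain to that extent.

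The most abundant heavy and kappa segments were high and low in the same libraries. Ighv11-2 took 52.3% of the heavy chain segment counts over all libraries, and Igkv14-126 took 33.6% of the kappa counts. Joined, these segments make a receptor for phosphatidylcholine that is typical of B-1 cells, which are B cells of body cavities that make natural IgM. Ighv12-3 and Igkv4-91 make another receptor of that kind, and they were added after values were seen. The germline ends of these segments and of the lambda segment Iglv1 are shown because the results turn on them. Each is printed 5′ to 3′ on the coding strand of GRCm39 and holds the last 60 coding bases and the recombination signal, with its heptamer and nonamer in capitals.
Ighv11-2: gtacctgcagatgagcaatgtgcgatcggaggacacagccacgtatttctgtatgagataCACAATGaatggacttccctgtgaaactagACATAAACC
Igkv14-126: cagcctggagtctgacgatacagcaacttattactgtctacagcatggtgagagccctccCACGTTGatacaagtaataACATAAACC
Ighv12-3: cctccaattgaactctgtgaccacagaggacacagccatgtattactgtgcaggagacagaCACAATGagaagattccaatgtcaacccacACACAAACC
Igkv4-91: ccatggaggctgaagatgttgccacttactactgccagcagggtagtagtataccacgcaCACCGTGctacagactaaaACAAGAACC
Iglv1: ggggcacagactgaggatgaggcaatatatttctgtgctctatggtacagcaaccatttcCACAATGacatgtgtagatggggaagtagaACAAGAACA

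These stretches are chr12:114011822-114011920 (minus strand) for Ighv11-2, chr6:67873567-67873654 (plus) for Igkv14-126, chr12:114330101-114330200 (minus) for Ighv12-3, chr6:68745511-68745598 (minus) for Igkv4-91 and chr16:18903728-18903826 (minus) for Iglv1. The spacer between heptamer and nonamer was 23 bases in the heavy and lambda segments and 12 in the kappa segments. Compared with the canonical heptamer CACAGTG, the heptamer had 2 mismatches in Igkv14-126 and 1 in the other segments shown.

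Ighv11-2 had 88, 97 and 2 counts in AVF males 1 to 3 and 17, 23 and 115 in AVF females 1 to 3. In sham it had 11, 0 and 0 in males and 3, 188 and 341 in females. Igkv14-126 had 100, 121 and 0 counts in AVF males 1 to 3, 22, 75 and 157 in AVF females, 19, 0 and 2 in sham males and 2, 255 and 340 in sham females. In 5 of the 12 libraries these were the leading heavy and the leading kappa segment at once, namely AVF male 2, AVF females 2 and 3 and sham females 2 and 3.

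Sham female 3 stood at the upper end, with Ighv11-2 at 90.9% of its 375 heavy chain segment counts and Igkv14-126 at 72.3% of its 470 kappa counts. AVF female 1, the library highest in Jchain, had only 11.2% and 5.61%, and its leading segments were Ighv1-9 with 50 counts and Igkv12-46 with 128. Igkv12-46 had 146 counts in all libraries together. Igkv16-104 had 154 of its 244 counts in AVF male 1.

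Neither segment was called between the groups. The log2 fold changes were -0.45 ± 1.25 for Ighv11-2 (adjusted p = 0.838) and -0.15 ± 1.23 for Igkv14-126 (adjusted p = 0.949, quasi-likelihood test of edgeR), and the direction turned in the model with sex as a covariate, at 0.92 and 1.03. Ighv12-3 and Igkv4-91 were also found in the same libraries, with 28 and 97 counts in AVF male 1, 8 and 38 in AVF male 2, 12 and 16 in AVF female 3 and 6 and 27 in sham female 3. In the other 8 libraries they had 0 to 2 and 0 to 4 counts.

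**Figure D4:**
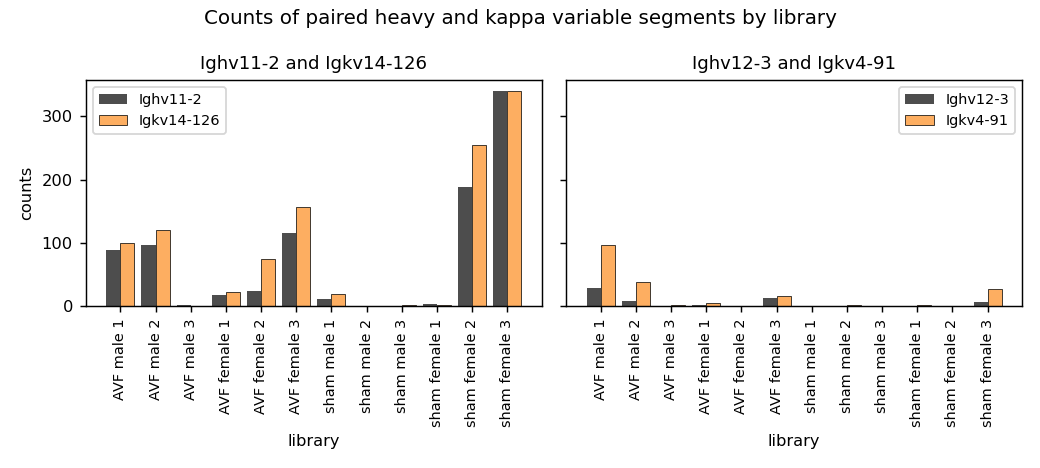
Counts (linear axis) of 2 heavy chain variable segments, dark bars, and of the kappa segment known to pair with each, orange bars, in each of the 12 libraries. Ighv11-2 and Igkv14-126 are high in the same libraries, with the most in sham female 3 (341 and 340 counts), and are at 0 to 2 counts in AVF male 3 and sham males 2 and 3.

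Of the 346 segments, 8 passed the filter on low values. Of the 8, 2 were called higher in AVF and 0 lower, beside 3.37% and 1.40% of all tested genes. Those 2, Iglv1 and Ighv1-11, had no sham library over 1 CPM and passed the filter through the AVF group alone, so their number and direction are given as a description. Iglv1, the main lambda segment, rose from 0.153 ± 0.197 to 1.65 ± 0.964 normalized CPM (SD, n = 6 each), a log2 fold change of 3.35 ± 0.78 with an adjusted p of 0.017 by edgeR's quasi-likelihood test. Its counts were 21, 29 and 8 in AVF males 1 to 3, 29, 43 and 31 in AVF females, 2, 0 and 1 in sham males and 0, 7 and 10 in sham females. The groups overlapped only at AVF male 3 and sham female 3, and the call held in all 23 alternative settings. Ighv1-11 was called with a log2 fold change of 5.78 ± 1.74 (adjusted p = 0.0442), but 70 of its 93 counts came from AVF female 3, without which the adjusted p was 0.125, and it was called in 8 of 23 alternative settings.

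Promoters of variable segments carry the octamer ATGCAAAT, which is bound by the Oct factors. The windows from 250 bases before to 50 bases after the annotated start were searched on both strands. The octamer was found in 80.5% of 113 heavy and 73.0% of 100 kappa segments, and in 1.74% of 32851 RefSeq promoter windows of the same length (GRCm38.p6). Windows of 30 bases around the match, with the octamer or its reverse complement in capitals, are shown for the segments named above because each of them held 1 match.
Ighv11-2: agcaggaaggcATGCAAATagggcctcttt
Igkv14-126: ggttctcaatgATTTGCATgctctcacttc
Ighv12-3: ttgttccccacATGCAAATgcatgttctac
Igkv4-91: tatgtcttgctATTTGCATagttcatcatc
Iglv1: aaatgaaagtaATTTGCATtactagcccag

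The heavy chain segments held the octamer in the forward direction and the light chain segments held it reversed. The windows lie at chr12:114012414-114012443, chr6:67873059-67873088, chr12:114330667-114330696, chr6:68746175-68746204 and chr16:18904297-18904326 of GRCm39, in the order shown. The EBF1 core CCCNNGGG was in 0.885% of the heavy, 12% of the kappa and 13.7% of the RefSeq windows, and the XBP1 core TGACGTG in 0.885%, 0.0% and 2.01%. None of the 5 segments held either. Of the 9 B and plasma cell genes, Cd79a and Jchain were in the RefSeq table, and none of the 3 motifs was in their windows.

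Other genes of B cells and of their signals were compared as lists. Of 20 genes of B cell identity and receptor signalling, 16 were tested, with a median log2 fold change of 0.50. Of the 16, 1 was called higher and 0 lower, beside 3.37% called higher and 1.40% lower among all tested genes. The called gene was Blnk, which encodes an adaptor below the B cell receptor that macrophages also use, with 4.06 to 10.6 normalized CPM in AVF and 1.72 to 4.53 in sham. Its log2 fold change was 1.08 ± 0.29 (adjusted p = 0.0299), and the call was lost when AVF male 2, AVF male 3, AVF female 3, sham male 1, sham female 1 or sham female 2 was left out (adjusted p of up to 0.0646, or a change under 2-fold). Summed macrophage markers were 601 to 1090 in AVF and 341 to 609 in sham, and their part in the Blnk result was not tested. The 3 most abundant genes of the list were Ebf1 and Cd24a, which other cell types also express, and Ralgps2, with log2 fold changes of -0.11 ± 0.12, -0.50 ± 0.21 and -0.24 ± 0.18 (adjusted p of 0.594, 0.119 and 0.373).

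Of 15 plasma cell and antibody secretion genes, 12 were tested and 0 were called by edgeR's quasi-likelihood test. An unadjusted p under 0.05 was found for 4 of the 12, beside 5023 of all 15912 tested genes. The median log2 fold change was 0.40. Hsp90b1, a chaperone of the endoplasmic reticulum found in all cells, measured 814 to 1030 normalized CPM in AVF and 549 to 814 in sham. The ranges met at AVF male 1 and sham male 2, and the log2 fold change was 0.37 ± 0.10 (adjusted p = 0.0314). Edem1, which marks misfolded proteins for removal, had 0.33 ± 0.09 (adjusted p = 0.0266), and Xbp1, the transcription factor of secretory cells, had 0.16 ± 0.14 (adjusted p = 0.496). These changes were under 2-fold, and without the OUT libraries the adjusted p was 0.105 for Hsp90b1 and 0.0859 for Edem1.

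Of 18 B cell chemoattractants and survival factors, 12 were tested, with a median log2 fold change of 0.27. Of the 12, 1 was called higher and 0 lower, beside 3.37% called higher among all tested genes. Cd40, the receptor through which T cells help B cells and activate macrophages, measured 1.70 to 3.29 normalized CPM in AVF and 0.888 to 1.57 in sham without overlap. Its log2 fold change was 1.10 ± 0.23 with an adjusted p of 0.0103, and it was called in all 23 alternative settings. Cxcl13, the chemokine that draws B cells into follicles, reached 88.1 in AVF female 3 and 42.9 in AVF male 1, but its log2 fold change of 1.14 ± 0.54 was not called (adjusted p = 0.168). Cxcl12 and Ccl21a had 0.04 ± 0.15 and 0.21 ± 0.20 (adjusted p of 0.883 and 0.517).

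Of 9 germinal centre and class switch genes, 6 were tested and 0 were called by edgeR's quasi-likelihood test, with a median log2 fold change of -0.03. An unadjusted p under 0.05 was found for 1 gene of the list, beside 5023 of all 15912 tested genes. That gene was S1pr2, which holds B cells in germinal centres and is also expressed in vessel walls, at 0.58 ± 0.13 (adjusted p = 0.0157) without overlap. Bcl6 and Fas had -0.51 ± 0.30 and -0.03 ± 0.19 (adjusted p of 0.266 and 0.928).

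Of 9 Fc receptors and antibody transport genes, 8 were tested, with a median log2 fold change of 0.78. Of the 8, 1 was called higher and 0 lower, beside 3.37% called higher among all tested genes. An adjusted p under 0.05, at any size of change, was found for 6 of the 8, all higher. Among all 15912 tested genes it was found for 2190, of which 1373 were higher. Pigr, which carries IgA and IgM across epithelia, was called with a log2 fold change of 8.16 ± 2.11 (adjusted p = 0.0251), but it had 25.2 and 144 normalized CPM in the OUT libraries AVF male 2 and AVF female 2, in which the hepatocyte markers were high, and 0 to 0.408 in the other 10. Pigr thus passed the filter on low values through the AVF group alone and could hardly have been called lower. Without the OUT libraries its log2 fold change was 0.64 (adjusted p = 0.712). Pigr was not called either without sham male 1, sham female 2 or sham female 3. Fcgr2b and Fcgr3, which encode Fc receptors that macrophages carry, the former found on B cells too, had log2 fold changes of 0.92 ± 0.17 (adjusted p = 0.00405) and 0.78 ± 0.15 (adjusted p = 0.00708) without overlap and under 2-fold. Fcgrt, which protects IgG from breakdown, had 0.19 ± 0.11 (adjusted p = 0.255).

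**Figure D5:**
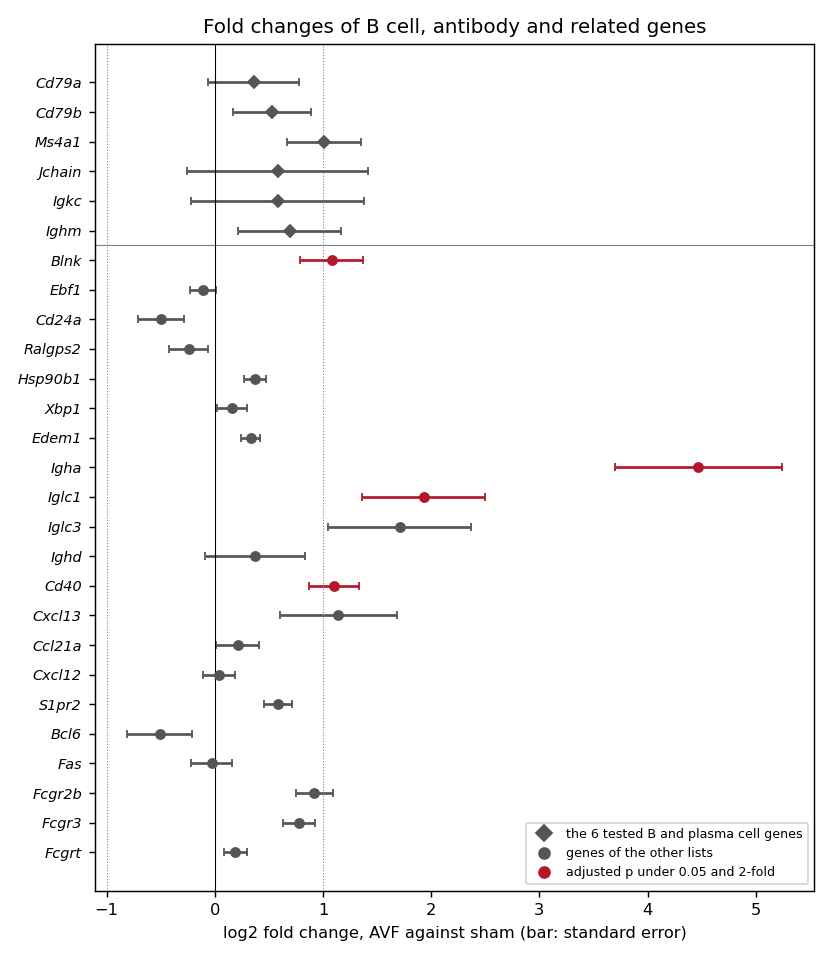
Log2 fold change of AVF against sham with its standard error (n = 6 each) for the 6 tested B and plasma cell genes (diamonds) and genes of the other lists (circles), in red where called. The diamonds all lie between 0.36 and 1.01 and none is called, while Igha stands at 4.47.

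To determine differences between the sexes, females were compared with males within each operation. In sham, 0 of the 9 genes were called, against 0.0818% of 21992 tested genes. Jchain measured 25.5 normalized CPM in females and 3.50 in males on average (n = 3 each), a log2 fold change of 2.85 ± 0.84 with an unadjusted p of 0.00943 and an adjusted p of 0.434 by edgeR's quasi-likelihood test. Igkc had 2.90 ± 0.75 (unadjusted p = 0.00509, adjusted p = 0.391) and Ighm had 1.14 ± 0.49 (unadjusted p = 0.0481, adjusted p = 0.537). Sham females 2 and 3 were far above the males for these genes, and sham female 1 lay within the range of the males.

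Of the 15 plasma cell genes 1 was called between the sexes in sham, beside 0.0818% of 21992 tested genes. It was Tent5c, named after its values were seen. Tent5c, a poly(A) polymerase that stabilises antibody mRNA in plasma cells and acts in other tissues too, had 50.6 ± 2.20 normalized CPM in females and 102 ± 6.85 in males (SD, n = 3 each), a log2 fold change of -1.01 ± 0.10 (adjusted p = 0.0219, quasi-likelihood test of edgeR), opposite in direction to Jchain. In AVF, 0 of the 9 genes were called, against 0.0316% of 22123 tested genes, with log2 fold changes of 0.74 for Jchain, 0.83 for Igkc and 0.63 for Ighm (adjusted p of 0.997). The interaction of operation and sex called 0 of the 9 genes and 0.0% of 22163 tested genes, at -2.17 for Jchain, -2.12 for Igkc and -0.56 for Ighm (adjusted p of 0.960 to 0.976).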

How the data were processed

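RNA was from the IVC of 12 mice, 1 library each, made from poly(A) RNA. The authors trimmed reads (Trimmomatic 0.39), aligned them to GRCm39 (STAR 2.7.7a) and ran RSEM 1.3.3, whose expected counts for each gene they deposited, without normalization. Such counts divide reads between similar genes. Here edgeR 4.0.16 (R 4.3.3) was used on rounded counts, with TMM normalization, the quasi-likelihood test and Benjamini-Hochberg adjustment over all tested genes. The comparison of AVF with sham took genes over 1 CPM in 2 or more samples, and those between sexes took genes with over 12 counts in total, where a call needed 1.5-fold. DESeq2 1.42.0 and the other alternatives are given with the closing values. Shares used unrounded counts and exact permutation tests (scipy), and correlations used log2 normalized CPM (prior count 1). Gene names and positions are from GENCODE M39. The numbers in the labels were checked as pairs and not used in the main tests. Separate mice were compared, and no batch was named in the labels. On simulated counts of 15512 genes with 200 changed between AVF and sham, 200 were recovered and 1 other was called. Recovery at the levels and spread of the B and plasma cell genes themselves was not tested.

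The genes, the lists and the tests were chosen with earlier results of these data known. Described were the 9 genes, of each B cell list every called gene up to 6 and the 3 with the highest mean, the 5 most abundant variable segments and called ones, and the 8 genes most like Cd79a and Jchain. Marker lists of other cells are given by sums and counts. OUT mice are not a group in the labels and were not tested as one. The result of 1 gene of a list is not reported here.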

Additional observations from a re-analysis of the deposited data

Results flagged for a closer look

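In 12 of the 67 groups of 6 libraries searched, 1 library lay far from the others, by Dixon's test at the 95% level. Chance passes it in about 1 of 20 groups where values are normally distributed and groups are separate. Here the values were not on a log scale and the groups shared their libraries, so the 12 cannot be set against that rate. Among the B and plasma cell genes, Mzb1 measured 2.27 normalized CPM in AVF female 1 and 0 to 0.229 in the other AVF libraries, and Ighg2b measured 0.439 in AVF female 2 and 0 to 0.0974 in the others. AVF female 1 is the library with 46.0% of its counts in ribosomal RNA genes, and it was also the highest in Jchain, Igkc and Ighm.

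In AVF male 3, IgG made up 4.67% of the heavy chain constant counts, against 0.0392% to 0.567% in the other AVF libraries, and kappa made up 76.2% of the light chain constant counts, against 89.8% to 95.2%. In the sham group, Igha was highest in sham male 3 at 0.254 normalized CPM, against 0 to 0.0848, and Iglc1 in sham female 3 at 0.824, against 0.0473 to 0.287.

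Among genes of the other lists, Cxcl13 measured 31.8 and Edem1 111 normalized CPM in sham male 1, against up to 14.7 and 94.8 in the other sham libraries. Pigr measured 144 in AVF female 2, against up to 25.2. Fcgr2b and Fcgr3 measured 151 and 96.6 in AVF female 3, against up to 96.3 and 62.3, and Fcgr2b measured 70.5 in sham male 3, against up to 53.3.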

How the results depend on the processing

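Ms4a1 was the 1 of the 9 genes called by edgeR's exact test and the 1 called by DESeq2, and 0 were called in every other setting. Igha, Iglv1 and Cd40 were called in all 23 alternatives. Of these, Igha and Iglv1 had no sham library over 1 CPM and passed the filter on low values through the AVF group alone. Genes called between AVF and sham numbered 759, and 2190 without a fold threshold, 475 without the OUT libraries and 470 to 1023 with 1 library left out. Between female and male AVF they numbered 7, and 17 by the exact test, 62 by DESeq2 and 14 with the replicate block. Between female and male sham they numbered 18, and 178 by the exact test, 239 by DESeq2, 32 without a filter, 46 with the replicate block, 10 with all 12 samples in 1 fit and 6 to 60 with 1 library left out. The interaction called 0, with 1069 at an unadjusted p under 0.05, and DESeq2 called 4.

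Deviations of mice of the same number had a mean r of 0.0973 (over 0.1 in 3 of 6 pairs, up to 0.253), and those of other pairs had -0.0187. The difference was not tested, and the numbers were not taken as pairs in the main tests. With the replicate block, 668 genes were called between AVF and sham. In that model Ighv11-2 turned to 1.34, Igkv14-126 to 1.33 and Fas to 0.01 on the log2 scale. With sex as a covariate the segments turned to 0.92 and 1.03, and Ebf1 turned to 0.02 without the OUT libraries. With 1 library left out, log2 fold changes were -0.73 to 0.80 for Ighv11-2, -0.43 to 0.82 for Igkv14-126, -0.12 to 0.08 for Fas and -0.03 to 0.12 for Cxcl12. The difference of AVF minus sham was then -1.55 to 0.627 percentage points for IgM, -0.347 to 0.579 for IgG and -2.60 to 2.54 for kappa. The cause of these turns was not tested. The tests of each share gave no adjusted p under the threshold in any setting.

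Counts under 3 in a library limit Mzb1, Ighg2b, Ighg2c and most variable segments. In sham they also limit Igha, Iglc1, Iglc3 and Iglv1, and so the fold changes of these genes.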
